A study of Mus musculus with 11 samples.

Results

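The 7 genes described here encode the killing machinery of cytotoxic lymphocytes, and they were read in whole lungs of mice 3 days after intratracheal bleomycin. They are the granzymes Gzma, Gzmb and Gzmk, the pore-forming protein perforin (Prf1), the granule membrane protein Nkg7, Fas ligand (Fasl) and the lymphocyte cathepsin W (Ctsw). They were chosen by name, as the rows of the deposited table that carry these symbols, and make up 7 of the 14700 genes in it. The bleomycin group holds 5 lung libraries of C57BL/6 mice aged 8 weeks that were given bleomycin at 3 U/kg in 50 µL on day 0. The saline group holds 6 lung libraries of mice of the same strain and age that were given saline in the same volume. Lungs of both groups were taken on day 3. Bleomycin is a DNA-damaging glycopeptide used to injure the rodent lung. The labels name neither the sex nor a genotype, nor do they tie samples to separate animals. The p-values therefore speak only to the spread among these libraries, part of which may be technical.

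Natural killer cells and cytotoxic T cells store granzymes and perforin in secretory granules. On contact with a target cell the granules are released, perforin opens the target membrane, and granzymes, which are serine proteases, enter and cut intracellular proteins. Fas ligand works beside the granules, by engaging the death receptor Fas on the target. In the lung these cells are known for killing virus-infected and malignant cells.

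Total counts ran from 13226339 to 17010616 per bleomycin library and from 13739589 to 19009284 per saline library. The saline libraries were uneven. Saline 1 and 4 resembled each other, as did saline 2 and 3, and Spearman's rho across genes was 0.843 between saline 2 and saline 4, below every pair of a bleomycin with a saline library (0.860 to 0.971). Results that change when either pair is left out are given below with and without it. Saline 6 was nearer to bleomycin 2 (rho of 0.971) than to any saline library, the nearest of which was saline 1 (0.951). The tissue label could be checked against lung genes. Surfactant protein B (Sftpb) and the alveolar type 1 cell marker Ager were well expressed in both groups, and both rose in bleomycin lungs, by 1.27 and 1.5 on the log2 scale (edgeR quasi-likelihood test, adjusted p = 0.0149 and 0.0122). With a correction for GC content the adjusted p of Sftpb was 0.0842. Of the 10 lung tissue genes listed, these 2 rose, 1 fell (Ptprc, given below) and 7 were not called. The club cell gene Scgb1a1, with the highest FPKM of the list, was among those not called. It averaged 39351 CPM in bleomycin lungs and 78085 CPM in saline lungs (log2 fold change -0.99, adjusted p = 0.351, same test).

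All 7 genes fell in bleomycin lungs, by 3.20-fold (Ctsw) to 8.93-fold (Gzma). Across the 14478 genes tested, 10.3% were called, 5.7% as lower (825 genes) and 4.63% as higher (671 genes). Scaled by library totals in place of TMM factors, 380 genes fell and 894 rose. The median log2 fold change of the 7 genes was -2.70, against -0.04 over all genes tested. For 6 of the 7, every bleomycin library lay below every saline library in CPM (counts scaled to the library's size with TMM factors), which was the case for 4.41% of all genes tested. Ctsw was the exception. In the deposited FPKM values 5 of the 7 were apart in this way, against 2.5% of all genes tested. These are levels in whole lung tissue, in which fewer cytotoxic cells and less RNA per cell cannot be told apart. Markers of both cell types that make these proteins fell too: 13 of 15 natural killer cell markers and 13 of 17 T cell markers, with values given below. Their part in the result was not tested.

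**Figure D1:**
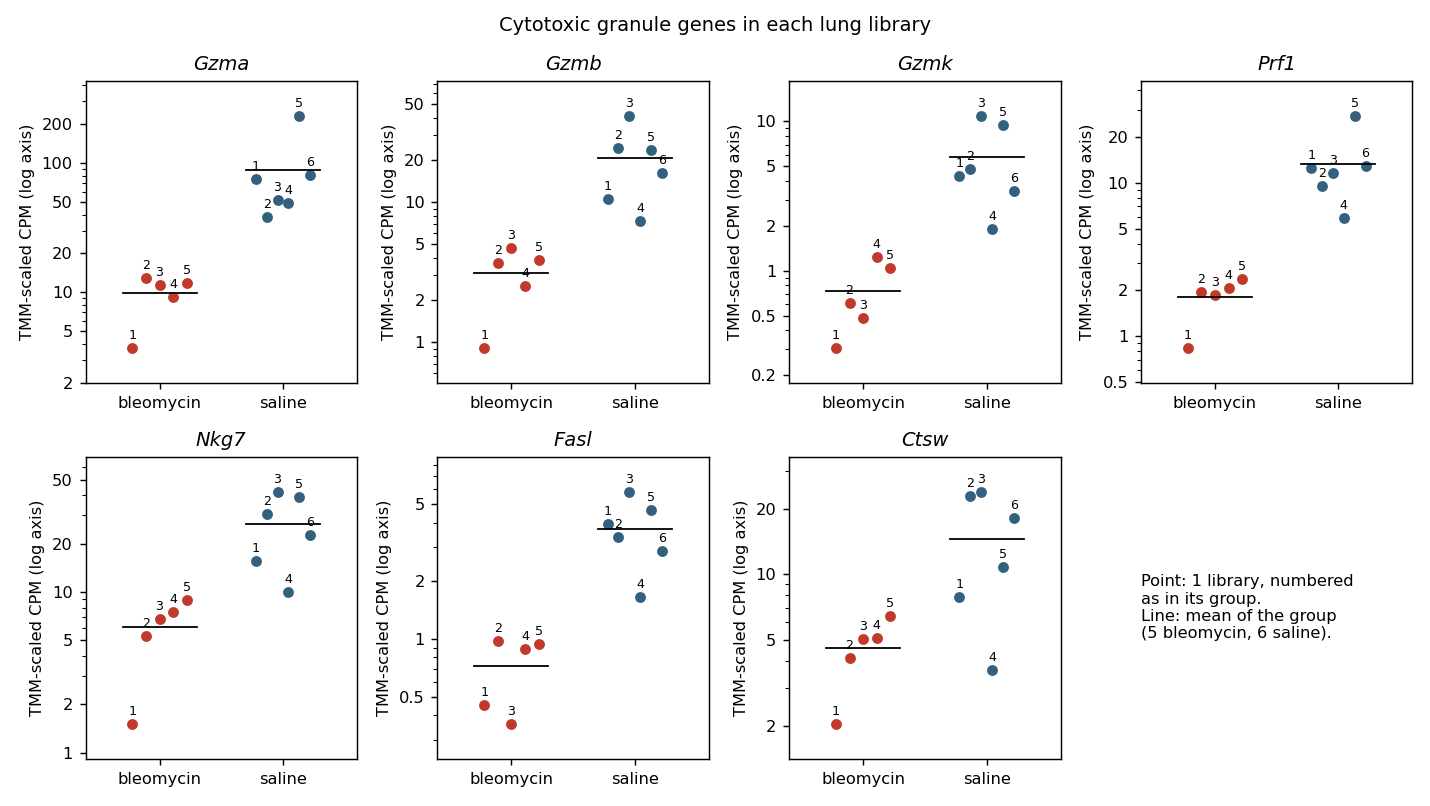
TMM-scaled CPM (log axis) of each of the 7 granule genes in the 5 bleomycin and 6 saline libraries, numbered within their group, with a line at the group mean. All bleomycin points lie below all saline points for every gene but Ctsw, where saline 4 (3.62 CPM) lies among the bleomycin libraries.

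The promoters of the 3 granzymes are printed here because they are the stretches on which transcription factors of cytotoxic cells are known to act. Each is the 250 bases before the RefSeq start of the gene (build GRCm38.p6, minus strand), written 5′ to 3′. Capitals mark letters that match a searched motif on either strand, and no 2 matches overlap in these windows.
Gzmb: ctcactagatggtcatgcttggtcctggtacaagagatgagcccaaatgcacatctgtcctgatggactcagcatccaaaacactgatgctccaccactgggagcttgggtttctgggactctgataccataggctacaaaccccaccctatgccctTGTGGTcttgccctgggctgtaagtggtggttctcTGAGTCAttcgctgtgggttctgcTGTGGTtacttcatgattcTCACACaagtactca
Gzma: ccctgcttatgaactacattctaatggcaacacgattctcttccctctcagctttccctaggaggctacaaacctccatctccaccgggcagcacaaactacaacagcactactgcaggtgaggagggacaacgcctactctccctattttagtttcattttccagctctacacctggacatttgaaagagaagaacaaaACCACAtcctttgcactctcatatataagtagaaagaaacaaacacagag
Gzmk: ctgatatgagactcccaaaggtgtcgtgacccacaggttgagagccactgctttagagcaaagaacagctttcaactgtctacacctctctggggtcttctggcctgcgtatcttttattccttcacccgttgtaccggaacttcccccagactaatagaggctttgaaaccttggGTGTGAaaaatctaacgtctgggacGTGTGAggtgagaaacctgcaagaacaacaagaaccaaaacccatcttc
The Gzmb window is chr14:56262335-56262584, the Gzma window chr13:113100982-113101231 and the Gzmk window chr13:113180966-113181215. The submitters' processing notes name GRCm39, so these positions are those of the RefSeq table and not of the counts.

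A window of this length was found in RefSeq for 6 of the 7 genes (not Ctsw), and 6 motifs were searched in them on both strands. The T-box site TCACAC, the kind of site read by T-bet and Eomes, was in 3 of the 6 windows (Nkg7, Gzmk and Gzmb) and in 12.3% of 32851 promoter windows of the same length. The RUNX site TGTGGT was in 4 windows (Nkg7, Prf1, Gzma and Gzmb) and in 14% of all windows. The AP-1 site TGANTCA was in the Gzmb window alone among the 6, and in 6.75% of all windows. In the Gzmb window the RUNX matches begin 93 and 34 bases before the start, the AP-1 match 58 bases before it and the T-box match 15 bases before it. The Gzma window holds 1 RUNX match, 50 bases before the start, and the Gzmk window holds 2 T-box matches, 74 and 49 bases before it. The STAT site TTCNNNGAA was found in Nkg7 (7.02% of all windows), the ETS core AGGAAG in Fasl, Nkg7 and Prf1 (29.5%), and the CRE core GACGTCA in none of the 6 (2.78%). Letters that match a motif are a description of the sequence and not evidence of binding.

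Gzma encodes granzyme A, a tryptase of natural killer and cytotoxic T cell granules, and was the most abundant of the 7. It measured 3.69, 12.9, 11.4, 9.27 and 11.9 CPM in bleomycin libraries 1 to 5, against a lowest value of 38.2, a median of 63.8 and a highest of 232 CPM in the saline libraries. The groups did not overlap, bleomycin 1 was the lowest library of all and saline 5 stood far above the other saline libraries. The means were 9.82 ± 3.67 CPM in bleomycin lungs (SD, n = 5) and 88.0 ± 72.5 CPM in saline lungs (SD, n = 6). The log2 fold change was -3.16 ± 0.51 (SE), an 8.93-fold lower level (edgeR quasi-likelihood test, Benjamini-Hochberg adjusted p = 0.00547). Without saline 5 it was -2.59, still past the threshold. The values rest on 49 to 228 reads per bleomycin library and 545 to 3032 per saline library.

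Gzmb encodes granzyme B, the protease that cleaves after aspartate and activates caspases and Bid in target cells. It measured 0.905, 3.70, 4.69, 2.52 and 3.90 CPM in bleomycin libraries 1 to 5, against 7.30, 19.9 and 41.4 CPM as the lowest, median and highest saline values. Again the groups were apart, with saline 4 the lowest and saline 3 the highest of the saline libraries. The means were 3.14 ± 1.47 CPM in bleomycin lungs and 20.6 ± 12.3 CPM in saline lungs, a log2 fold change of -2.70 ± 0.50 or 6.49-fold lower (adjusted p = 0.00914, same test). Reads numbered 12 to 78 per bleomycin library and 115 to 656 per saline library.

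Gzmk encodes granzyme K, a tryptase best known from memory-type CD8+ T cells. It measured 0.302, 0.606, 0.481, 1.23 and 1.04 CPM in bleomycin libraries 1 to 5, against 1.90, 4.57 and 10.9 CPM as the lowest, median and highest saline values. The groups did not overlap, with bleomycin 4 the nearest to saline 4. Means were 0.731 ± 0.389 CPM in bleomycin lungs and 5.81 ± 3.57 CPM in saline lungs, a log2 fold change of -2.97 ± 0.52 or 7.82-fold lower (adjusted p = 0.00754). With 4 to 20 reads per bleomycin library, against 30 to 173 per saline library, it is the thinnest of the granzyme measurements. The gene Esm1 lies across Gzmk on the opposite strand with no shared exon in GENCODE M21. Esm1 averaged 30.7 ± 6.36 CPM in bleomycin lungs and 24.4 ± 14.99 CPM in saline lungs (adjusted p = 0.579, and 0.047 without saline 1 and 4).

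Other granzymes were scarce. Gzmm, a granzyme of natural killer cells, averaged 1.90 ± 0.247 CPM in bleomycin lungs and 2.09 ± 1.13 CPM in saline lungs, a log2 fold change of -0.14 that did not pass the test (adjusted p = 0.824) and changed sign with total-count scaling, limma or a replicate block, without saline 1 and 4, and without saline 4 alone. Gzmc had too few reads to be tested: 0 in 4 bleomycin libraries and 3 in bleomycin 5, against 3, 30, 29, 0, 4 and 6 reads in saline libraries 1 to 6. Most of its reads came from saline 2 and 3. Without a filter on low counts its adjusted p was 0.052. Gzmd, Gzme, Gzmf, Gzmg and Gzmn were not analysed here.

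Prf1 encodes perforin, which forms the pore through which granzymes pass. It measured 0.829, 1.94, 1.86, 2.05 and 2.34 CPM in bleomycin libraries 1 to 5, against 5.84, 12 and 27.3 CPM as the lowest, median and highest saline values. The highest bleomycin library lay well under the lowest saline library, and saline 5 was the highest of all. Means were 1.80 ± 0.574 CPM in bleomycin lungs and 13.2 ± 7.33 CPM in saline lungs. The log2 fold change of -2.86 ± 0.40, or 7.27-fold lower, had the smallest adjusted p of the 7 genes (0.00297, edgeR quasi-likelihood test). Reads numbered 11 to 45 per bleomycin library and 92 to 356 per saline library.

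Nkg7 encodes a membrane protein of cytotoxic granules that is needed for their efficient release. It measured 1.51, 5.34, 6.79, 7.50 and 8.95 CPM in bleomycin libraries 1 to 5, against 9.96, 26.6 and 42.1 CPM as the lowest, median and highest saline values. The groups came close, since bleomycin 5 and saline 4 differed by little, and in the deposited FPKM values they overlapped (4.82 in bleomycin 5 and 3.94 in saline 4). Means were 6.02 ± 2.84 CPM in bleomycin lungs and 26.6 ± 12.8 CPM in saline lungs, a log2 fold change of -2.14 ± 0.46 or 4.41-fold lower (adjusted p = 0.0175, edgeR quasi-likelihood test). Without bleomycin 2 the adjusted p was 0.0502. Reads numbered 20 to 172 per bleomycin library and 157 to 668 per saline library.

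Fasl encodes Fas ligand, the membrane protein that triggers apoptosis through Fas. It measured 0.452, 0.970, 0.361, 0.886 and 0.937 CPM in bleomycin libraries 1 to 5, against 1.65, 3.66 and 5.80 CPM as the lowest, median and highest saline values. The groups did not overlap, and bleomycin 3 rather than bleomycin 1 was lowest. Means were 0.721 ± 0.291 CPM in bleomycin lungs and 3.72 ± 1.45 CPM in saline lungs, 5.08-fold lower (adjusted p = 0.00642, edgeR quasi-likelihood test). Reads numbered 6 to 18 per bleomycin library and 26 to 92 per saline library.

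Ctsw encodes cathepsin W, a cysteine protease found mainly in natural killer and cytotoxic T cells, and gave the weakest result. It measured 2.04, 4.12, 5.05, 5.11 and 6.45 CPM in bleomycin libraries 1 to 5, against 3.62, 14.5 and 24.1 CPM as the lowest, median and highest saline values. The groups overlapped, since saline 4 lay below 4 of the 5 bleomycin libraries. Means were 4.55 ± 1.64 CPM in bleomycin lungs and 14.6 ± 8.45 CPM in saline lungs, a log2 fold change of -1.68 ± 0.46 or 3.20-fold lower (adjusted p = 0.041, edgeR quasi-likelihood test). Only 2 of the 11 fits that leave out a single library kept this call, those without saline 1 (adjusted p = 0.0467) and without saline 4 (0.0152). The adjusted p was 0.0672, 0.0947, 0.0851, 0.0785 and 0.0647 without bleomycin 1 to 5, and 0.068, 0.0677, 0.0545 and 0.0521 without saline 2, 3, 5 and 6. Exons of Ctsw also overlap those of Fibp on the opposite strand in GENCODE M21. The strand setting of the counting is not given in the sources used here, so reads of the shared stretch cannot be told apart. Fibp averaged 51.9 ± 5.47 CPM in bleomycin lungs and 36.9 ± 10.8 CPM in saline lungs, 1.41-fold higher (adjusted p = 0.122, and 0.0285 without saline 2 and 3).

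The libraries that were low for one gene were mostly low for the others. Among the bleomycin libraries, bleomycin 1 was the lowest for 6 of the 7 genes. Among the saline libraries, saline 4 was the lowest for 6 of the 7, with Gzma lowest in saline 2. Saline 3 was the highest for 5 genes, and saline 5 for Gzma and Prf1. Without saline 2 and 3, 6 of the 7 genes fell past the threshold, as did 9.97% of all genes tested, with log2 fold changes between -1.84 for Nkg7 and -3.47 for Gzma and adjusted p of 0.0237 and 0.00291 for these 2 genes. Ctsw was then at -1.15 (adjusted p = 0.0783). Without saline 1 and 4, all 7 fell, as did 4.07% of all genes tested, with log2 fold changes between -2.03 for Ctsw and -3.32 for Gzma and adjusted p between 0.00367 and 0.00993. Over the 11 libraries each gene's log2 CPM followed the mean profile of the other 6 with a Pearson r between 0.832 (Ctsw) and 0.970 (Nkg7). These correlations describe libraries that fall into 2 treatment groups and share their depth. Under other settings the count of granule genes that fell was 7 with DESeq2 (11.2% of all genes tested) and with a GC correction (3.87%), 6 with total-count scaling (2.62%) and with limma on log2(FPKM + 1) or log2(FPKM + 0.1) (2.39% and 2.61%), and 5 with a replicate block (1.69%) or a threshold of 0.01 (0.926%).

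**Figure D2:**
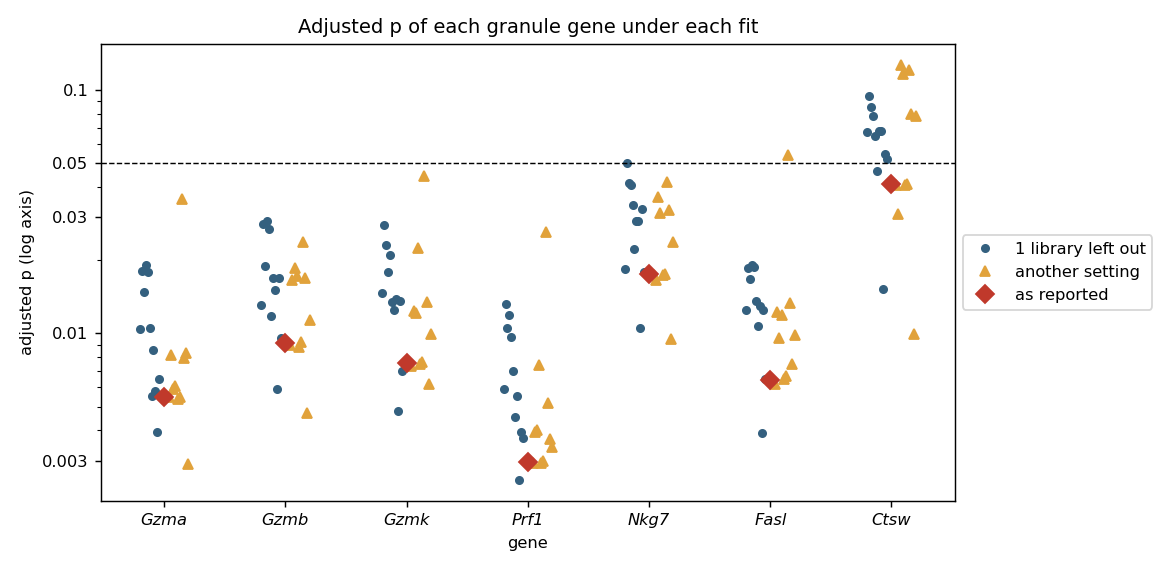
Adjusted p (log axis) of the 7 granule genes in the fit as reported (diamond), in the 11 fits that each leave out 1 library (circles) and under other settings (triangles, DESeq2 not drawn), with a dashed line at 0.05. Gzma, Gzmb, Gzmk and Prf1 stayed under the line in every fit drawn, Nkg7 and Fasl each crossed it in 1, and most points of Ctsw lie above it.

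Between genes, levels can be set side by side only per length, and the deposited FPKM values serve for that. In bleomycin lungs the order of mean FPKM was Gzma (5.68 ± 2.27), Nkg7 (3.13 ± 1.56), Gzmb (2.37 ± 1.13), Ctsw (0.778 ± 0.308), Prf1 (0.440 ± 0.157), Fasl (0.334 ± 0.148) and Gzmk (0.248 ± 0.141; SD, n = 5). In saline lungs it was Gzma (43.4 ± 33.1), Gzmb (14.0 ± 9.20), Nkg7 (12.3 ± 6.34), Prf1 (2.81 ± 1.42), Ctsw (2.29 ± 1.47), Gzmk (1.73 ± 1.11) and Fasl (1.52 ± 0.646; SD, n = 6). Neighbours in the bleomycin order whose means differed by less than the larger of their SDs were Nkg7 and Gzmb, Prf1 and Fasl, and Fasl and Gzmk. In the saline order only the step between Nkg7 and Prf1 was larger than that spread, and it held in 6 of 6 libraries. The order also depends on the gene lengths used as divisor. The deposited values correspond to 1.88 kb for Gzma, 3.23 kb for Gzmk and 6.36 kb for Ctsw, where the joined exons of GENCODE M21 give 1.01, 1.39 and 1.89 kb. For Gzmb both come to 1.44 kb.

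Gzma was the largest part of the granzyme reads in every library. Its share of the Gzma, Gzmb and Gzmk reads was 75.4, 74.9, 68.8, 71.2 and 70.6% in bleomycin libraries 1 to 5, and 83.7, 56.7, 49.8, 84.3, 87.5 and 80.5% in saline libraries 1 to 6. The bleomycin libraries sat in a narrow band, with saline 1, 4, 5 and 6 above all of them and saline 2 and 3 below all of them. The share rested on 65 reads in bleomycin 1 (95% Wilson interval 63.7 to 84.2%) and on 3467 reads in saline 5 (86.3 to 88.5%). Those intervals cover counting error only. The Gzmb share was 18.5 to 28.3% in bleomycin libraries. Saline 2 and 3 had Gzmb shares of 36.1% and 39.7%, above that band, and the remaining saline libraries 8.97 to 16.1%, below it. In FPKM, Gzma stood at 1.87 to 3.13 times Gzmb in bleomycin libraries, and at 0.963 (saline 3) to 7.47 times in saline libraries. No shift of the make-up between the treatments could be read from these shares, since the saline libraries lie on both sides.

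**Figure D3:**
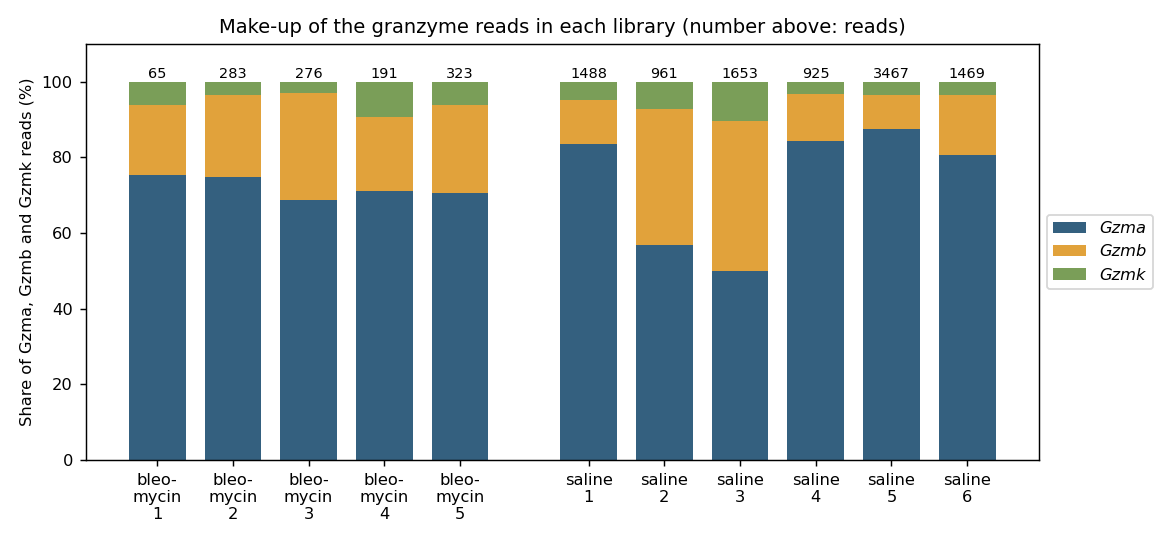
Share (%) of Gzma, Gzmb and Gzmk among the reads of the 3 genes in each library, with the number of reads above each bar. Gzma takes 68.8 to 75.4% in the bleomycin libraries and between 49.8% (saline 3) and 87.5% (saline 5) in the saline libraries.

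The natural killer cell markers fell with the granule genes: 13 of 15 fell, none rose, and their median log2 fold change was -2.38. Their summed level was 46.5 to 58.8 CPM in bleomycin libraries and 115 to 266 CPM in saline libraries. Klrg1, an inhibitory receptor of mature natural killer and effector T cells, averaged 0.801 ± 0.567 CPM in bleomycin lungs and 11.98 ± 6.08 CPM in saline lungs, a log2 fold change of -3.86 (adjusted p = 0.00349, edgeR quasi-likelihood test). The receptors Klra3 (-3.76, adjusted p = 0.00432) and Klrc1 (-2.91, adjusted p = 0.00349) followed, and Klra8 was at -2.39 (adjusted p = 0.00538). Genes of the Klra family are near copies of each other, so their reads may be split among them. The markers not called were Itga2, at 22.4 CPM in bleomycin lungs and 26.1 CPM in saline lungs, and Cd244a, at 8.95 CPM in bleomycin lungs and 15.1 CPM in saline lungs. Cd244a reached 23.4 CPM in bleomycin 1, against 4.21 to 7.18 CPM in the other bleomycin libraries, and without bleomycin 1 it fell past the threshold (-1.50, adjusted p = 0.0167).

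T cell markers fell as well, 13 of 17 with none higher, with a median log2 fold change of -1.89. Their summed level was 56.2 to 104 CPM in bleomycin libraries and 131 to 411 CPM in saline libraries. The costimulatory receptor Icos averaged 2.42 ± 1.01 CPM in bleomycin lungs and 16.2 ± 8.07 CPM in saline lungs (log2 fold change -2.73, adjusted p = 0.00361, edgeR quasi-likelihood test). Themis, a T cell signalling protein, was at -2.47 (adjusted p = 0.00661), and Cd5, an inhibitory receptor, at -2.37 (adjusted p = 0.0257). The Cd5 call was lost without bleomycin 2, 3 or 4 (adjusted p = 0.0652, 0.0666 and 0.0537). The T cell receptor chain Cd3d averaged 5.64 ± 1.64 CPM in bleomycin lungs and 24.7 ± 11.0 CPM in saline lungs (adjusted p = 0.0058). Ptprc, the CD45 antigen of all leukocytes, was also lower, at 93.1 ± 26.7 CPM in bleomycin lungs and 319 ± 137 CPM in saline lungs (log2 fold change -1.78, adjusted p = 0.00887).

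Other cell types that can carry some of these genes had a smaller share of their markers called. None of 7 B cell markers passed the test in either direction (edgeR quasi-likelihood test), although all 7 had negative log2 fold changes, and their summed level was 30.2 to 126 CPM in bleomycin libraries and 46.3 to 344 CPM in saline libraries. Of 7 plasmacytoid dendritic cell markers 1 fell, Siglech at -2.28 (adjusted p = 0.0182, and 0.0535 without bleomycin 2), with a sum of 216 to 271 CPM in bleomycin libraries and 301 to 487 CPM in saline libraries. Mast cells and basophils, which have serine proteases of their own, gave 1 fall among the 6 of 12 listed markers that were analysed. It was the chymase Cma1 (-2.72, adjusted p = 0.024, and 0.0608 and 0.0587 without bleomycin 2 and 4). The median log2 fold change of the 6 was 0.40. Their summed level was 389 to 569 CPM in bleomycin libraries and 239 to 389 CPM in saline libraries. Most of this sum came from Hdc, Kit and Gata2, at 175, 131 and 144 CPM in bleomycin lungs and 145, 85.7 and 100 CPM in saline lungs. The proteases Cpa3, Mcpt4 and Cma1 averaged 0.896, 1.15 and 0.551 CPM in bleomycin lungs and 1.21, 0.546 and 3.76 CPM in saline lungs. Among the 6 of 8 listed markers of type 2 innate lymphoid cells that were analysed, Il7r fell (-2.06, adjusted p = 0.0327) and Areg rose (1.52, adjusted p = 0.00601). The Il7r call was lost without any of the bleomycin libraries or without saline 2 or 3 (adjusted p up to 0.08). Their sum was 77.7 to 134 CPM in bleomycin libraries and 91.0 to 1319 CPM in saline libraries. The high saline sums came from Arg1, at 1138 and 499 CPM in saline 2 and 3 and 3.10 to 3.54 CPM in the remaining saline libraries. None of 5 genes of lymph node or heart (Ccl21a, Cr2, Fcer2a, Myl7 and Actc1) was called. All 5 had negative log2 fold changes, down to -1.64 for Myl7 (adjusted p = 0.0731, edgeR quasi-likelihood test). Their sum was 55.3 to 197 CPM in bleomycin libraries and 103 to 435 CPM in saline libraries. All 14700 genes analysed had reads in at least 1 library, so no listed marker among them could be at 0 throughout. The listed T cell markers Trac, Trbc1, Trbc2 and Trdc and the type 2 innate lymphoid cell markers Il13 and Il5 were not analysed here. Neither were the mast cell and basophil markers Cd200r3, Fcer1a, Mcpt8, Ms4a2, Tpsab1 and Tpsb2, nor the thymus genes Dntt and Rag1.

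Set against the natural killer markers of the same library, whether Gzma and Prf1 separated the groups depended on which markers formed the denominator. Per CPM of all 15 summed markers, Gzma was at 0.0646 to 0.245 CPM in bleomycin libraries and 0.331 to 0.873 CPM in saline libraries, and Prf1 at 0.0145 to 0.0401 CPM in bleomycin libraries and 0.0465 to 0.103 CPM in saline libraries. Both genes kept the groups apart, and the other 5 overlapped. Among the 15, Itga2 alone held 19.2 to 28.7 CPM in bleomycin libraries and 15.6 to 40.1 CPM in saline libraries. A narrower denominator of 12 receptors, Ncr1 and the Klr genes of the list, was added after values were seen. It left out Itga2, Cd244a and Txk. All of the receptors kept were called as lower in bleomycin lungs, while Itga2 and Cd244a were not. Dividing by genes kept in this way tends to bring the groups together, so overlap against them is no independent result. Their summed level was 11.2, 21.6, 22.1, 25.4 and 27.7 CPM in bleomycin libraries 1 to 5, against 75.1, 117 and 202 CPM as the lowest, median and highest saline values. Against these 12 receptors all 7 genes overlapped between the groups. Gzma was at 0.331 to 0.596 CPM in bleomycin libraries and 0.473 to 1.15 CPM in saline libraries, with medians of 0.429 in bleomycin and 0.588 in saline libraries. Prf1 was at 0.0743 to 0.0899 in bleomycin libraries and 0.0684 to 0.135 in saline libraries. Both bleomycin ranges overlapped the saline ones at their lower end. Gzmb was at 0.0811 to 0.212 in bleomycin libraries and 0.0825 to 0.377 in saline libraries, and Gzmk at 0.0217 to 0.0484 in bleomycin libraries and 0.0223 to 0.0993 in saline libraries. Prf1 and Gzmk, like Gzma, had lower medians in bleomycin libraries. Prf1 was at 0.0842 in bleomycin and 0.104 in saline libraries, and Gzmk at 0.0281 in bleomycin and 0.0405 in saline libraries. The medians of Gzmb were 0.141 in bleomycin and 0.124 in saline libraries. Nkg7, Fasl and Ctsw had higher medians in bleomycin libraries as well. Nkg7 was at 0.296 in bleomycin and 0.187 in saline libraries, Fasl at 0.0349 in bleomycin and 0.0272 in saline libraries, and Ctsw at 0.202 in bleomycin and 0.105 in saline libraries. These ratios are a description with no test, and overlap does not show that the ratios were equal. The share of all genes that would keep the groups apart after the same divisions was not computed. The counts of genes apart or overlapping therefore have no background to be read against. Per CPM of the summed T cell markers only Gzmk kept its groups apart, at 0.0054 to 0.0124 in bleomycin libraries and 0.0128 to 0.0295 in saline libraries.

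**Figure D4:**
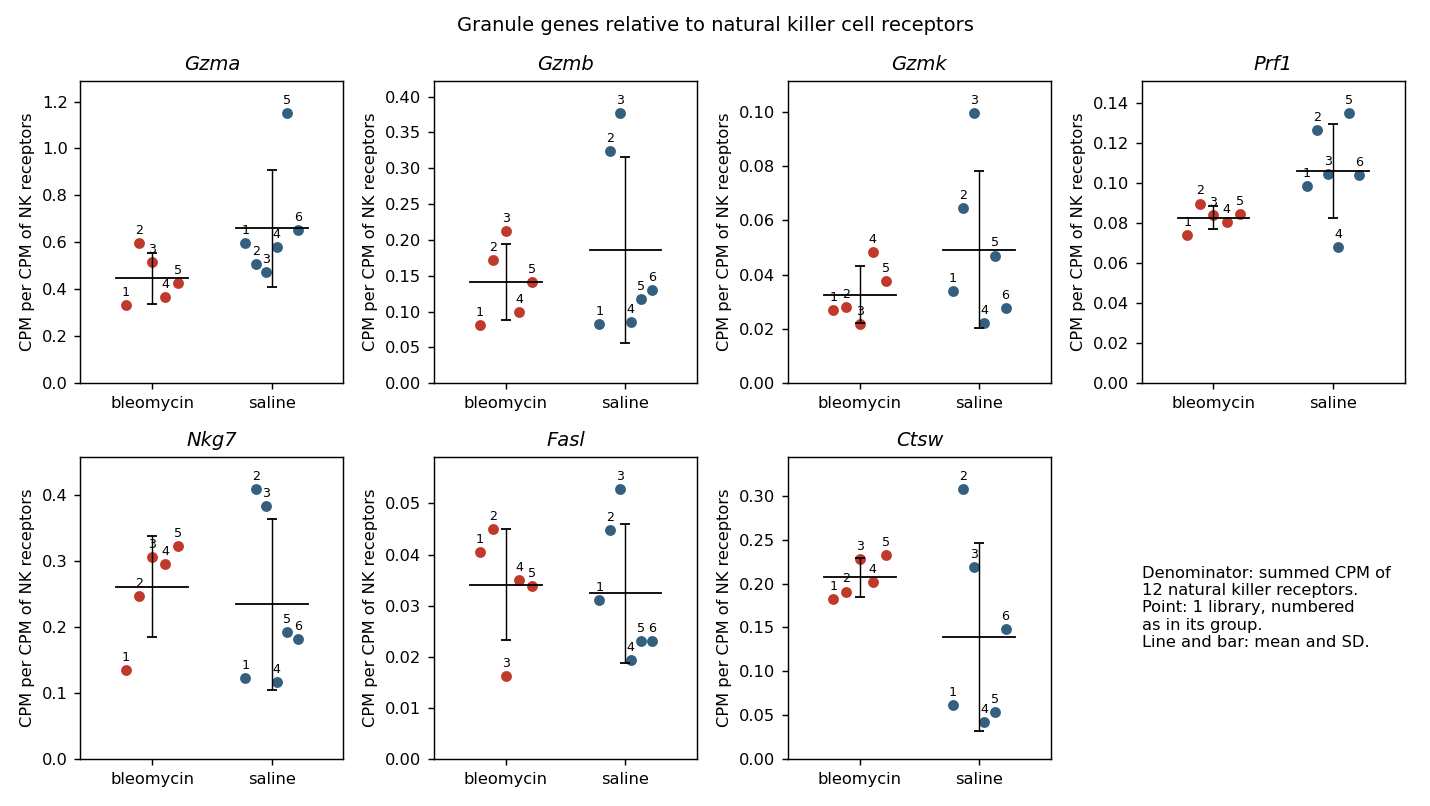
CPM of each granule gene divided by the summed CPM of 12 natural killer receptors in the same library, with the group mean and SD. This denominator was chosen after values were seen. The bleomycin and saline points overlap for all 7 genes, for example at 0.331 to 0.596 in bleomycin and 0.473 to 1.15 in saline libraries for Gzma.

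Cytokines that cytotoxic lymphocytes release were lower as well. Of 10 effector cytokines and chemokines 6 fell and none rose, with a median log2 fold change of -3.20. Interferon gamma (Ifng) averaged 0.105 ± 0.15 CPM in bleomycin lungs and 5.91 ± 6.61 CPM in saline lungs (log2 fold change -5.65, adjusted p = 0.0113, edgeR quasi-likelihood test). The chemokine Ccl5 averaged 11.4 ± 3.79 CPM in bleomycin lungs and 161 ± 171 CPM in saline lungs (-3.82, adjusted p = 0.0157). Ccl4 was at -3.67 (adjusted p = 0.0188), and its call was lost without bleomycin 2 or 4 (adjusted p = 0.0522 and 0.0501). Much of the saline level came from saline 2 and 3, without which the log2 fold changes were -3.82 for Ifng, -2.20 for Ccl5 and -1.86 for Ccl4, all past the threshold. The count of 6 was 3 without bleomycin 2 or without bleomycin 4. Over all genes 293 and 344 fell in these fits, against 825 with all libraries.

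Cytokines that induce the granule genes, and their receptors, gave 8 falls among 17 genes tested and no rise, with a median log2 fold change of -0.88. The interleukin-12 receptor chain Il12rb1 averaged 1.04 ± 0.517 CPM in bleomycin lungs and 10.9 ± 11.4 CPM in saline lungs (log2 fold change -3.37, adjusted p = 0.0204, edgeR quasi-likelihood test). It was not called without bleomycin 2 or 3 (adjusted p = 0.0546 and 0.0541), and was at -1.78 without saline 2 and 3. Il12b, the p40 chain of interleukin-12, was at -2.81 (adjusted p = 0.0183). The interleukin-2 receptor alpha chain Il2ra was at -2.23 (adjusted p = 0.0213), a call lost without bleomycin 2, 3 or 4 (adjusted p up to 0.0587), and at -1.41 without saline 2 and 3. Il2rb, the chain shared by the interleukin-2 and interleukin-15 receptors, averaged 9.76 CPM in bleomycin lungs and 39.8 CPM in saline lungs (-2.03, adjusted p = 0.00935). Il15 itself was at -0.88 (adjusted p = 0.026), a call lost without bleomycin 3, 4 or 5 (0.0634, 0.0578 and 0.0543). Jak1, a kinase that the interleukin-2 and interleukin-15 receptors use, averaged 163 ± 20.3 CPM in bleomycin lungs and 177 ± 45.7 CPM in saline lungs. It was not called (adjusted p = 0.694). The count of 8 was 4, 3, 4 and 5 without bleomycin 2 to 5, and 5 without saline 2 or 3. Falls over all genes, 825 with all libraries, numbered 293, 331, 344 and 340 without bleomycin 2 to 5. They numbered 623 without saline 2 and 667 without saline 3.

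Of 10 transcription factors of cytotoxic lymphocytes 4 fell and none rose, with a median log2 fold change of -1.11. Tbx21 encodes T-bet, which drives Gzmb and Prf1 in these cells. It averaged 1.40 ± 0.429 CPM in bleomycin lungs and 7.80 ± 2.90 CPM in saline lungs (log2 fold change -2.47, adjusted p = 0.00349, edgeR quasi-likelihood test). Its relative Eomes averaged 1.54 CPM in bleomycin lungs and 3.38 CPM in saline lungs and was not called (adjusted p = 0.057, and 0.0491 without saline 2). Id2, needed for natural killer cell development, averaged 82.9 ± 13.6 CPM in bleomycin lungs and 176 ± 36.9 CPM in saline lungs (-1.09, adjusted p = 0.00538). Ikzf3 was at -1.47 (adjusted p = 0.0266), not called without bleomycin 2 or 3 (0.0645 and 0.0679). Runx3, the RUNX factor of CD8+ T cells, was at -2.03 (adjusted p = 0.0426), a call that was lost without any of the bleomycin libraries or without saline 1, 2, 3 or 5 (adjusted p up to 0.101). Without both saline 2 and 3 Runx3 was at -0.98 (adjusted p = 0.0901). The count of 4 was 2 without bleomycin 2 or without bleomycin 3. Over all genes 293 and 331 fell in these fits, against 825 with all libraries.

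Few genes of the machinery that processes and releases granules, much of which other lung cells also use, passed the threshold. A missing call does not show an unchanged level, and the means of Ctsc and Srgn, given below, differed without a call. Of 13 genes for granule processing, storage and inhibition 2 fell and none rose (median log2 fold change -0.23). Cst7, which encodes the cathepsin inhibitor cystatin F of cytotoxic cells, averaged 1.41 ± 0.532 CPM in bleomycin lungs and 7.34 ± 4.57 CPM in saline lungs (-2.37, adjusted p = 0.0148, edgeR quasi-likelihood test). M6pr, a receptor that carries granzymes to the granule, was at -0.83 (adjusted p = 0.0193), and was not called without bleomycin 2 or 4 (0.0518 and 0.0502) or with a GC correction (0.0549). Serglycin (Srgn), the proteoglycan that holds granzymes, averaged 190 CPM in bleomycin lungs and 352 CPM in saline lungs (adjusted p = 0.123, and 0.0415 without bleomycin 1). Ctsc, which activates granzymes, averaged 270 CPM in bleomycin lungs and 560 CPM in saline lungs (adjusted p = 0.115). The granzyme B inhibitor Serpinb9 averaged 125 CPM in bleomycin lungs and 149 CPM in saline lungs (adjusted p = 0.378), and the membrane protein Lamp1 498 ± 47.3 CPM in bleomycin lungs and 585 ± 128 CPM in saline lungs (adjusted p = 0.405).

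Granule exocytosis had 1 fall and 1 rise among 16 genes tested (median log2 fold change -0.13). Sytl3, a Rab27 effector, averaged 2.36 ± 0.692 CPM in bleomycin lungs and 5.59 ± 1.57 CPM in saline lungs (-1.24, adjusted p = 0.0203, edgeR quasi-likelihood test), and was not called without bleomycin 2, 4 or 5 (0.057, 0.0545 and 0.056). Unc13d, which encodes the granule priming factor Munc13-4, was 1.80-fold higher, at 86.2 ± 10.6 CPM in bleomycin lungs and 48.0 ± 11.8 CPM in saline lungs (adjusted p = 0.0151, and 0.0583 with a replicate block). Vamp8 averaged 448 ± 168 CPM in bleomycin lungs and 457 ± 118 CPM in saline lungs (adjusted p = 0.947).

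On the side of the target cell, 2 of 11 genes of Fas signalling and granzyme substrates fell and none rose (median log2 fold change -0.25). Fas, the receptor of Fas ligand, averaged 82.0 ± 31.0 CPM in bleomycin lungs and 60.5 ± 4.04 CPM in saline lungs and was not called (adjusted p = 0.182, edgeR quasi-likelihood test). Bid, a substrate of granzyme B, was at -0.99 (adjusted p = 0.0262), not called without bleomycin 2, 3 or 4 (0.0705, 0.0676 and 0.0637). Casp8, the caspase that Fas recruits, was at -0.81 (adjusted p = 0.0354), and its call was lost without bleomycin 1, 2, 3 or 4 or saline 1, 2, 3 or 5 (adjusted p up to 0.0844).

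**Figure D5:**
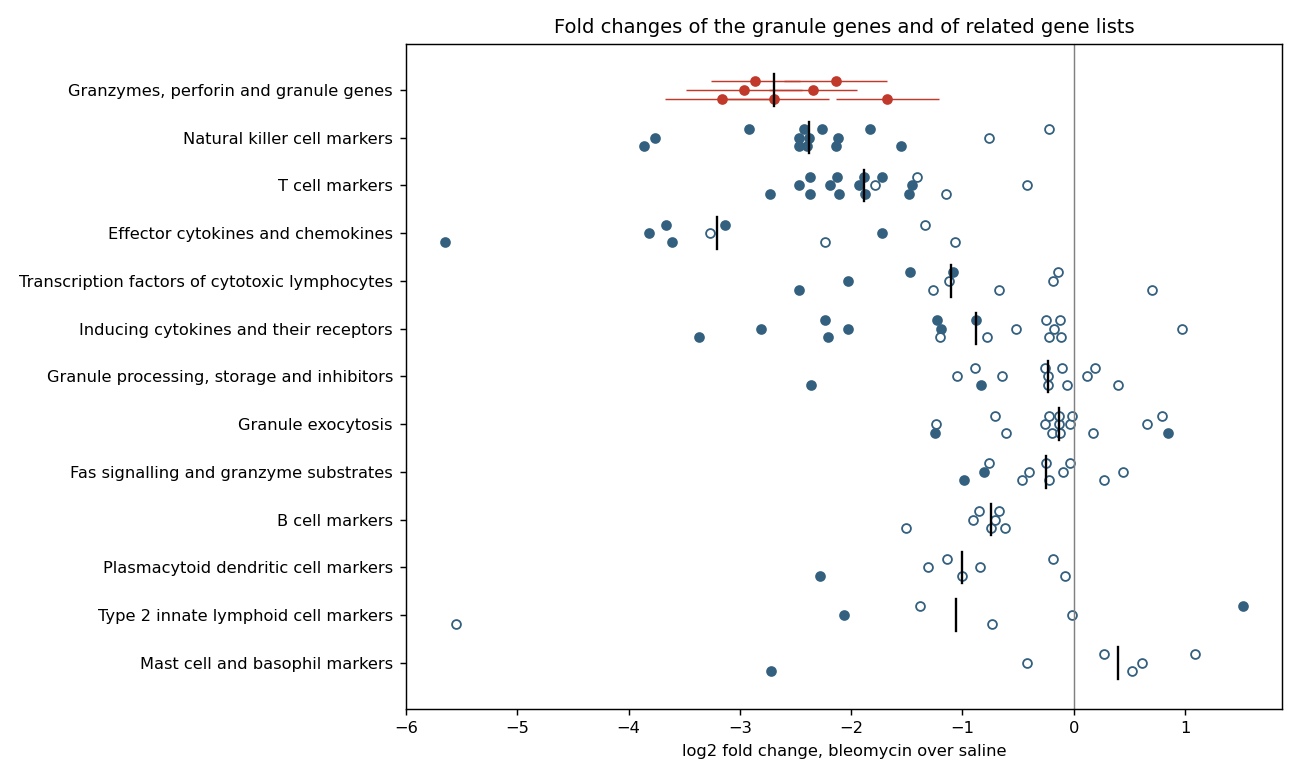
Log2 fold change, bleomycin over saline, of each gene of 13 groups, with filled points for genes past an adjusted p of 0.05 and a bar at the group's median. The granule genes (median -2.70, with SE bars), natural killer cell markers (-2.38) and effector cytokines (-3.20) lie far to the left, and the exocytosis genes (-0.13) lie around 0.

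The genes whose log2 CPM ran most like the granule genes over the 11 libraries were Sla2 (Pearson r = 0.986), Spn (0.983), Thy1 (0.981), Lck (0.978), Klrk1 (0.972), Cd3g (0.972), Il12b (0.971), Ms4a4b (0.970), Adgre4 (0.968) and Tbx21 (0.964). They were taken from 13840 genes with a mean of at least 1 CPM by their likeness to the mean standardised profile of the 7 genes, as a description with no test. Thy1, Lck and Cd3g are T cell genes, Klrk1 encodes the activating receptor NKG2D, and Spn encodes the leukocyte surface protein CD43. All libraries share the 2 treatments, so a gene that only separated the groups would also score highly.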

How the data were processed

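Polyadenylated RNA was captured and, with dUTP in the second strand, made into libraries for paired-end NovaSeq reads, per the labels' protocols. HISAT2 2.2.1, HTSeq 2.0.2, FastQC and the build GRCm39 appear in the submitters' processing notes, without roles, annotation or strand setting. The authors deposited 1 table with whole-number read counts, not normalized, for each gene and library. The authors also deposited FPKM values. Nearly all of them lay within 2% of counts divided by a constant length per gene and the library's total. Samples were grouped by title.

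Counts were tested with edgeR 4.0.16 in R 4.3.3 (filterByExpr with a minimum count of 10, TMM scaling, quasi-likelihood test, Benjamini-Hochberg adjustment over all 14478 genes tested, threshold 0.05). CPM values use TMM-scaled library sizes. Total counts per library set the precision. Even the closest libraries, saline 1 and 4, differed beyond sampling noise (chi-square of 17.5 per degree of freedom), so none was counted as a duplicate. This measure compares libraries with sampling noise alone, so it cannot tell whether 2 libraries came from the same animal. On simulated counts for 14381 genes, the fit of bleomycin against saline recovered 31 of 99 genes changed by 1 on the log2 scale and 81 of 99 changed by 2, and called 3 of 14183 unchanged genes. The simulated libraries were drawn independently, without the likeness of saline 1 and 4 or of saline 2 and 3. These rates may therefore not hold for the real libraries.

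The members and the lists were chosen with earlier results of these data known. Besides the 7 genes, the text names from each list up to 3 genes past the threshold with the largest change and the gene with the highest mean FPKM, and the 10 genes most like the members. Other genes named from the lists were added after their values were seen. Alternatives were DESeq2 1.42.0, limma 3.58.1 on log2(FPKM + 1) and log2(FPKM + 0.1), other scalings and filters, a GC correction added after seeing the data, a replicate block and fits without 1 or 2 libraries. Overlaps and exon lengths came from GENCODE M21. Sequences came from RefSeq.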

Additional observations from a re-analysis of the deposited data

Results flagged for a closer look

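Of 30 groups of values examined, 4 held a library whose gap to its nearest neighbour passed the 95% limit of Dixon's test, which chance passes in about 1 of 20 groups. Gzma was at 232 CPM in saline 5, with the other saline libraries at 38.2 to 80.5 CPM. Prf1 was at 27.3 CPM in saline 5, the highest saline value, with the next at 12.9 CPM. The summed level of the natural killer cell markers was 46.5 CPM in bleomycin 3, below the other bleomycin libraries. Gzmc had 3 reads in bleomycin 5 and 0 in the other bleomycin libraries.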

How the results depend on the processing

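All 7 genes kept a negative log2 fold change in all 23 alternatives. Gzma, Gzmb, Gzmk and Prf1 passed the threshold in all 23, Fasl in 22, Nkg7 in 21 and Ctsw in 8. The number that fell was 6 with limma on FPKM at either pseudocount, with total-count scaling and without saline 2 and 3, was 5 at a threshold of 0.01, and ran from 5 to 7 with 1 library left out, lowest without bleomycin 2.

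Same-numbered samples did not deviate together (correlations of -0.189 to 0.0139). These values give no sign that the numbers pair the samples, but cannot exclude it, since the uneven saline libraries could mask a shared deviation. With a replicate block 5 of the 7 fell, with adjusted p of 0.0542 for Fasl and 0.121 for Ctsw, and over all genes 245 fell and 268 rose.

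Counts over all genes moved more. Against 825 falls and 671 rises, DESeq2 gave 1615 and 1249, limma on log2(FPKM + 1) 346 and 1022, the GC correction 560 and 404, the threshold of 0.01 gave 134 and 113, and the fits without saline 2 and 3 1443 and 1335 and without saline 1 and 4 590 and 286. Total-count scaling gave 380 and 894, and limma on log2(FPKM + 0.1) 378 and 985. Leaving out 1 library gave 293 to 1137 falls and 264 to 981 rises, with both highest without saline 6. Total-count scaling and limma on log2(FPKM + 0.1) moved the median log2 fold change of all genes to 0.14 and 0.15.

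Smaller lists moved as well. With a replicate block no exocytosis gene was called in either direction, and 7 natural killer cell markers, 8 T cell markers, 2 effector cytokines, 1 inducing cytokine or receptor gene and 2 transcription factors fell. At a threshold of 0.01 these counts were 8, 8, 0, 1 and 2. With limma on log2(FPKM + 1) 2 effector cytokines, 3 inducing genes and 2 transcription factors fell, and with total-count scaling 5 inducing genes and 2 transcription factors.

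Of 1443 values of 63 named genes, 1265 kept direction and side of the threshold, 143 lost a call, 11 gained one and 24 changed sign, all of these last of genes not called. Vamp8 turned to 0.12 with limma at either pseudocount, 0.15 with total-count scaling and 0.0798 without saline 1 and 4. With 1 library left out it ran from -0.285 to 0.09, above 0 without bleomycin 3, 4 or 5 or saline 4 or 5. Jak1 turned to 0.0848 with limma on log2(FPKM + 0.1), 0.0783 with log2(FPKM + 1), 0.0468 with total-count scaling and 0.0707 without saline 2 and 3. Gzmm turned to 0.161 with limma on log2(FPKM + 0.1), 0.0616 with log2(FPKM + 1), 0.0764 with total-count scaling, 0.0664 with the replicate block and 0.398 without saline 1 and 4, and ran from -0.255 to 0.152 with 1 library left out. Itga2 turned to 0.00918 with the GC correction, 0.00622 with limma on log2(FPKM + 0.1) and 0.00126 with log2(FPKM + 1). Without saline 2 and 3 Esm1 was at -0.0362 and Arg1 at 0.838. The cause was not tested. Gzmk and Fasl, with at most 20 reads per bleomycin library, are limited by depth.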
